A study of Mus musculus with 16 samples.

Results

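A set of 10 genes that mark periportal hepatocytes by the urea cycle and by amino acid handling were followed through mouse liver RNA sequencing, out of 55357 genes in the count table. They are Cps1, Ass1, Asl, Arg1, Otc, Gls2, Hal, Sds, Pck1 and Cyp2f2, chosen by name as the periportal counterpart in liver zonation, and 10 of 10 were found and passed the filter on low counts. The study set livers of mice with an altered telomerase RNA gene (Terc, mTERC in the labels) beside wild-type livers, in 4 groups of 4 libraries. AUG livers had the genotype mTERC CUG/AUG, which the labels do not spell out, and AUG_WT livers were the wild types of that line. The genotype of del7 livers was mTERC 29_35del, a loss of 7 nucleotides at positions 29 to 35, and del7_WT livers were the wild types of the del7 line. All were untreated mice fed freely in individually ventilated cages, and no deletion, transgene or agent is named as shared by mutants and wild types. Age is not given in the labels, and nothing there ties each replicate to its own animal, so the p-values below reflect variation among these libraries that may be technical. Terc itself is not analysed here, so the genotypes were not checked in the reads.

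Blood enters the liver lobule at its portal side and leaves at the central vein, and hepatocytes along that path carry different enzymes. Periportal hepatocytes turn ammonia into urea, break down amino acids and make glucose, whereas hepatocytes around the central vein hold glutamine synthetase (Glul), which traps the ammonia that passed the urea cycle, and cytochromes such as Cyp2e1 that act on drugs. In the urea cycle Cps1 joins ammonia and bicarbonate to carbamoyl phosphate in mitochondria, Otc passes it to ornithine to make citrulline, Ass1 adds aspartate, Asl splits the product into arginine and fumarate, and Arg1 releases urea. Glucagon, glucocorticoids and dietary protein are known to raise several of these enzymes.

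Promoters were available for 5 of the 10 members (Ass1, Otc, Hal, Pck1 and Cyp2f2), as RefSeq sequence of build GRCm38.p6 from 250 bases before to 50 bases after the start of the gene. A set of 4 is shown to put the genes whose levels moved most between libraries (Hal and Cyp2f2) beside a urea cycle enzyme and the classic hormone-responsive gene (Ass1 and Pck1). Capitals mark matches to 7 motifs searched on both strands, and positions count from the start of the gene.
Ass1, chr2:31470020-31470319, plus strand: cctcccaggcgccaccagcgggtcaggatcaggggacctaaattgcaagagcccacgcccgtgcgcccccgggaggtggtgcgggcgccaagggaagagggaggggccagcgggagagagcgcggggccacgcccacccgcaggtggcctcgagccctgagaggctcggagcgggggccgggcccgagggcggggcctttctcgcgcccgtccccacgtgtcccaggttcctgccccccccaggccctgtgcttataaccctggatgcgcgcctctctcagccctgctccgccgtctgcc
Hal, chr10:93488518-93488817, plus strand: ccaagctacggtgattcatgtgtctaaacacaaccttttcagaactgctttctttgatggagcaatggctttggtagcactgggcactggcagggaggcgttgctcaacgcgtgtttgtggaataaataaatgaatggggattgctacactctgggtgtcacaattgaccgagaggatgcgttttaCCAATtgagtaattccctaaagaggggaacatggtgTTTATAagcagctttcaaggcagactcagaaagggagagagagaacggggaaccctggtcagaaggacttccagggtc
Pck1, chr2:173152823-173153122, plus strand: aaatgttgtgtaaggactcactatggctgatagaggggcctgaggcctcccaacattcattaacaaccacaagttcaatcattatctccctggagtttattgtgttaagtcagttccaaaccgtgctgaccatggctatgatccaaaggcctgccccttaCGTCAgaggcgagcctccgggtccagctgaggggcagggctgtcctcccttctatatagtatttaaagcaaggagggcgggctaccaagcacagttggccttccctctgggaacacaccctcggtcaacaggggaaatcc
Cyp2f2, chr7:27119705-27120004, plus strand: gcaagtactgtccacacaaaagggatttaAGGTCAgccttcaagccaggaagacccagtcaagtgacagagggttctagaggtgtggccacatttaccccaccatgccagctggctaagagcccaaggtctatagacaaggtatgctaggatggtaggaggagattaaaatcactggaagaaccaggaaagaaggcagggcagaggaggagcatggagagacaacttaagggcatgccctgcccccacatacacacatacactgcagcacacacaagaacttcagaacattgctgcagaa
The Pck1 window held CGTCA at -90 to -86, the reverse complement of TGACG, the core of the cyclic AMP response element, which 20.8% of 32851 promoters of the same length also held. In Hal the capitals are CCAAT at -64 to -60 and TTTATA at -28 to -23, the reverse complement of TATAAA, found in 37.4% and 13.6% of promoters. The Cyp2f2 window held AGGTCA, the core of many nuclear receptor sites, at -221 to -216, against 16.3% of promoters. Ass1 and Otc had no match to these motifs or to the other 3 (TGACGTCA, TTGCNNCAA for C/EBP and TGTTTAC for forkhead factors), which 1.79%, 2.08% and 3.65% of promoters held. The full TGACGTCA contains TGACG, so those matches overlap by construction. The Ass1 window was 74.0% G and C, against a median of 52.7% over all promoters.

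Gene counts summed to between 7714058 and 14629022 per library. Counts were scaled with TMM, a method that equalises libraries on the bulk of their genes, and are given as counts per 1e+06 of the scaled library size (CPM). The members had 809 to 81402 counts each in a library, and together they took 0.669% (AUG_WT replicate 1) to 1.15% (AUG_WT replicate 3) of all counts. Of 9 hepatocyte markers, 9 were detected in every library. One library, AUG_WT replicate 1, was unlike the other 15. On principal component 1 (34.5% of the variance) its score was 126.1, while the other 15 scores lay between -21.6 and 10.7. Its reads also fell differently: 34.97% lay outside genes, the highest share, against 29.4% in the next library (del7_WT replicate 1). Its share of multimapping reads was the lowest, 9.23%, against 10.21% in the next (del7_WT replicate 1). The part of this read composition in its gene levels was not tested. AUG_WT replicate 1 enters every AUG_WT mean below. Fold changes against AUG_WT are given with and without it where it turned them or moved them by a wide margin.

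Adjusted for exon length, the members were among the most abundant genes of the liver, all at or above the 96.5th percentile of 14421 tested genes. The length-scaled level (TPM, counts per exon length on a common scale, mean ± SD over 16 libraries) was 2171 ± 386 TPM for Cps1, 1236 ± 226 TPM for Pck1, 882 ± 106 TPM for Arg1 and 832 ± 159 TPM for Ass1. Cyp2f2 followed at 593 ± 170.1 TPM. The other 5 were close together, with Hal at 264 ± 66.7 TPM, Otc at 225 ± 42.8 TPM, Sds at 203 ± 37.7 TPM, Gls2 at 196 ± 50.7 TPM and Asl at 191 ± 30.7 TPM. Cps1 was above Pck1 and Cyp2f2 above Hal in 16 of 16 libraries. Pck1 was above Arg1 in 15 libraries, Ass1 above Cyp2f2 in 14 and Hal above Otc in 13. Arg1 was above Ass1 in 12 libraries, Otc above Sds in 12, Sds above Gls2 in 9 and Gls2 above Asl in 8, so the order of these neighbours varied most between libraries. The length used is that of all annotated exons of a gene merged, not of a single transcript, and the order depends on it. By median CPM, which uses no length, Asl (337 CPM) lay above Gls2 (253 CPM) and Sds (119 CPM).

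Among the enzymes of the cycle itself, no group stood clear of its wild type. Cps1 had 4489.7, 3982, 4045 and 4905 CPM in AUG livers, against 2549, 3489, 6022 and 4927 CPM in AUG_WT livers. In del7 livers Cps1 had 4689, 4340.0, 4960.5 and 3378 CPM, against 5702, 4406, 4218 and 3384 CPM in del7_WT livers. The lowest and the highest Cps1 library were both AUG_WT (replicates 1 and 3), and in each pair of groups the ranges overlapped. Otc, the next step, had 361, 337, 366 and 443 CPM in AUG livers, against 118, 306, 403 and 427 CPM in AUG_WT livers. In del7 livers Otc had 284, 349, 312 and 307 CPM, against 413, 436, 359 and 339 CPM in del7_WT livers. Among the del7 line, del7 replicate 2 alone reached into the del7_WT range for Otc, and the means were 313 ± 27.1 CPM in del7 livers and 387 ± 45.5 CPM in del7_WT livers (SD, n = 4 each).

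Ass1 had 788, 742, 689 and 744 CPM in AUG livers, against 322, 565, 937 and 840.2 CPM in AUG_WT livers. In del7 livers Ass1 had 713, 959.8, 636 and 648 CPM, against 977, 829.1, 657 and 594 CPM in del7_WT livers. AUG libraries lay within a narrow band for this gene, at 741 ± 40.3 CPM (SD, n = 4), while AUG_WT libraries lay on both sides of that band at 666 ± 278 CPM (SD, n = 4), or 781 ± 193 CPM without replicate 1 (SD, n = 3). Asl measured 337, 322, 259 and 346 CPM in AUG livers, against 259, 263, 480.0 and 369 CPM in AUG_WT livers. In del7 livers Asl had 328, 388, 353 and 260.4 CPM, against 356, 336, 289.7 and 354 CPM in del7_WT livers. AUG_WT replicate 3 had the highest Asl of the series, and AUG replicate 3 and AUG_WT replicate 1 the lowest. Arg1, which ends the cycle, had 837, 685, 649 and 786 CPM in AUG livers, against 480.2, 795, 871 and 867 CPM in AUG_WT livers. In del7 livers Arg1 had 789, 670.2, 668 and 499 CPM, against 734, 691, 641 and 661 CPM in del7_WT livers. Without AUG_WT replicate 1 Arg1 and Otc were the steadiest members, each with an SD within groups of 0.18 on the log2 scale, against a median of 0.25 over all tested genes.

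**Figure D1:**
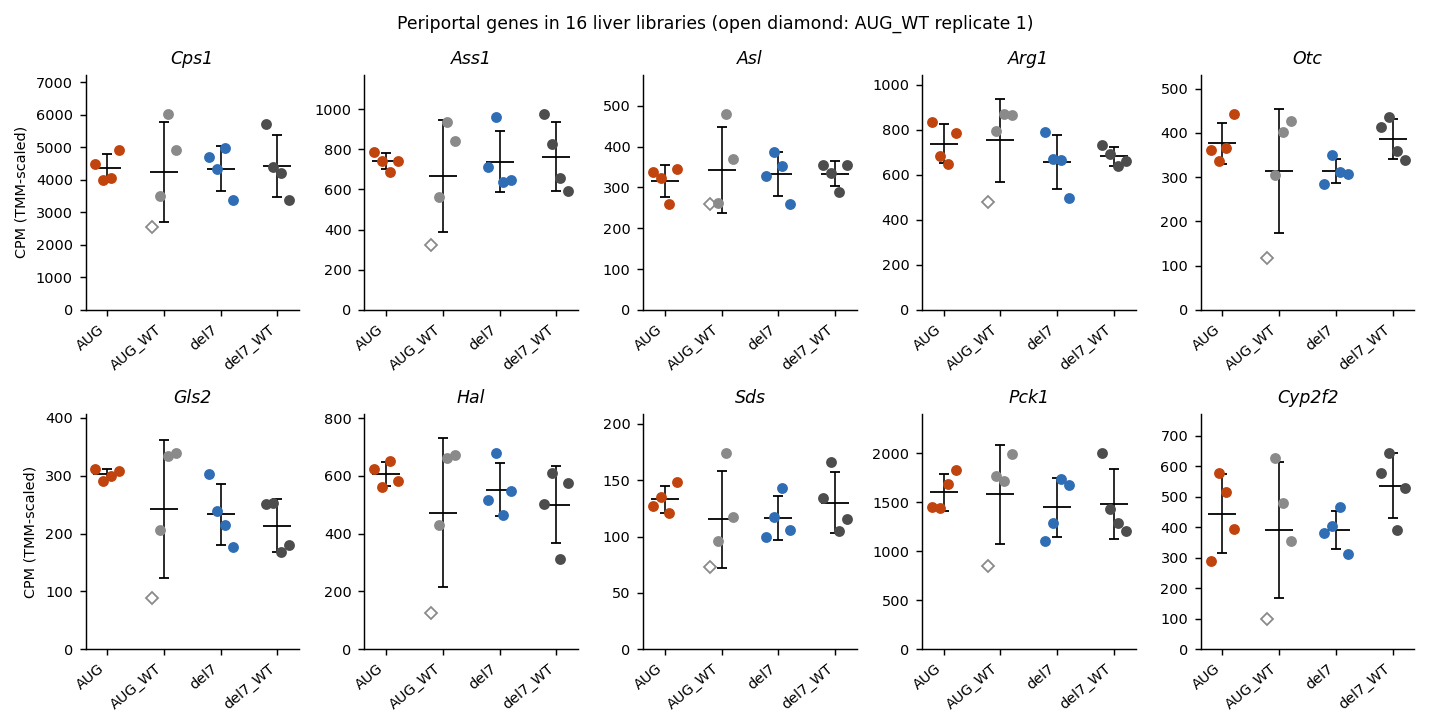
CPM of each periportal gene (vertical axes from 0) in AUG, AUG_WT, del7 and del7_WT livers, 1 point per library, with the mean and SD of each group of 4. AUG_WT replicate 1, the open diamond, is the lowest library for 10 of 10 genes, and in each panel the points of a mutant overlap those of its wild type.

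The next 3 members release ammonia from amino acids. Gls2, the liver glutaminase, frees ammonia from glutamine next to Cps1. Gls2 had 312, 292, 299 and 307 CPM in AUG livers, against 88.4, 206, 334 and 339 CPM in AUG_WT livers. In del7 livers Gls2 had 303, 239, 214 and 177 CPM, against 252, 254, 167 and 179.8 CPM in del7_WT livers. The 4 AUG libraries lay closer together for Gls2 than in any other member, at 302 ± 9.16 CPM (SD, n = 4), a coefficient of variation of 3.03%, and AUG_WT libraries spread from 88.4 to 339 CPM around them. Hal, which removes ammonia from histidine to make urocanate, had 626, 562, 653 and 584 CPM in AUG livers, against 126, 431, 664 and 672 CPM in AUG_WT livers. In del7 livers Hal had 515, 679, 465.8 and 548 CPM, against 505, 609.6, 312 and 575 CPM in del7_WT livers. Low Hal was seen in AUG_WT replicate 1 and, next, in del7_WT replicate 3, both wild types. Sds, which turns serine into pyruvate and ammonia, had 127, 135, 121 and 149 CPM in AUG livers, against 73.3, 95.9, 174 and 117 CPM in AUG_WT livers. In del7 livers Sds had 99.5, 117, 143 and 105 CPM, against 134, 166, 105 and 116 CPM in del7_WT livers. Its values were interleaved in both lines.

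Pck1 and Cyp2f2 are periportal genes outside nitrogen handling. Pck1, which commits oxaloacetate to glucose synthesis, had 1450.4, 1441, 1686 and 1834 CPM in AUG livers, against 848, 1770.4, 1715 and 1991 CPM in AUG_WT livers. In del7 livers Pck1 had 1104, 1285, 1734 and 1674 CPM, against 2003, 1434, 1285 and 1208 CPM in del7_WT livers. The highest Pck1 library was del7_WT replicate 1, with del7 replicates 3 and 4 above the other del7_WT libraries. Cyp2f2, a cytochrome P450 used as a periportal marker in mouse liver, had 287, 578, 515 and 394 CPM in AUG livers, against 99.3, 627, 478 and 354 CPM in AUG_WT livers. In del7 livers Cyp2f2 had 381, 403, 464 and 312 CPM, against 578, 642, 391 and 529 CPM in del7_WT livers. Group means of Cyp2f2 were 390.2 ± 62.6 CPM in del7 livers and 535 ± 106 CPM in del7_WT livers (SD, n = 4 each), and del7_WT replicate 3 lay inside the del7 range. It was the most variable member within groups, with a log2 SD of 0.66 over 16 libraries and 0.36 without AUG_WT replicate 1.

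Neither mutation shifted a periportal member past the test. In AUG against AUG_WT, 0 of 10 members had an adjusted p under 0.05 by edgeR's quasi-likelihood test, where 0.0277% of all tested genes did, and 0 of 10 had an unadjusted p under 0.05, where 8.81% of genes did. The log2 fold change (± SE) was 0.36 ± 0.36 for Hal, 0.32 ± 0.31 for Gls2 and 0.27 ± 0.27 for Otc, with edgeR adjusted p-values in that order of 0.788, 0.772 and 0.790. For Cps1 it was 0.04 ± 0.25, with a 95% interval of -0.51 to 0.58. Across the members it ranged from -0.12 (Asl) to 0.36 (Hal), 8 of 10 were above 0, and their median was 0.17 against -0.04 over all genes. Without AUG_WT replicate 1 the median was -0.09 against 0.01, 4 of 10 were above 0, and Hal, Gls2 and Otc stood at 0.06, 0.06 and 0.01. Cps1 stood at -0.13, Ass1 at -0.06, Cyp2f2 at -0.11, Pck1 at -0.17 and Asl at -0.21 without it. The side on which the AUG members lay therefore turned with 1 wild-type library. Erythroid markers, mostly globins, moved beside this comparison: 6 of 6 lay below 0 with a median log2 fold change of -1.97 (-2.34 without AUG_WT replicate 1) and 0 calls, and they summed to 138 to 529.5 CPM in AUG livers, against 132 to 2964 CPM in AUG_WT livers. Their part in the member values was not tested.

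In del7 against del7_WT, 0 of 10 members were called by edgeR, where the share over all genes was 0%, and DESeq2 and limma voom called 0 members in this and the other comparisons. At an unadjusted p under 0.05 the counts were 0 of 10 members and 277 genes (1.92%). Cyp2f2 had the farthest log2 fold change, -0.46 ± 0.39 (edgeR adjusted p = 1, interval -1.28 to 0.37), and Otc came next at -0.31 ± 0.27 (edgeR adjusted p = 1, interval -0.89 to 0.28). Cps1, Ass1, Asl, Arg1 and Pck1 lay between -0.05 and -0.01, Sds at -0.16, Gls2 at 0.13 and Hal at 0.14. The median of the members was -0.04, against 0.00014 over all genes, with 2 of 10 above 0. AUG_WT replicate 1 is in neither group but enters the shared estimate of spread: without it Otc had a log2 fold change of -0.31 with an unadjusted edgeR p of 0.0250 and an adjusted p of 0.884. In both lines the groups overlapped for 10 of 10 members, while 2.05% (AUG) and 4.01% (del7) of tested genes had groups that did not overlap. The intervals over 10 members reached from 0.645 to 2.19 fold for AUG over AUG_WT and from 0.413 to 1.89 fold for del7 over del7_WT. In both lines Cyp2f2 set the lower end and Hal the upper, and other members had narrower intervals, such as 0.744 to 1.30 for Arg1 in AUG. A change within a member's own interval could not be told from none with 4 libraries a group. Kupffer cell and macrophage markers moved beside this comparison: 10 of 10 lay above 0 for del7 with a median log2 fold change of 0.77 and 0 calls, and they summed to 432 to 701 CPM in del7 livers, against 267 to 426 CPM in del7_WT livers. Erythroid markers lay above 0 for 6 of 6 with a median of 0.92 and 0 calls, at 149.6 to 984 CPM in del7 livers, against 128 to 403 CPM in del7_WT livers. The part of both lists in the member values was not tested.

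**Figure D2:**
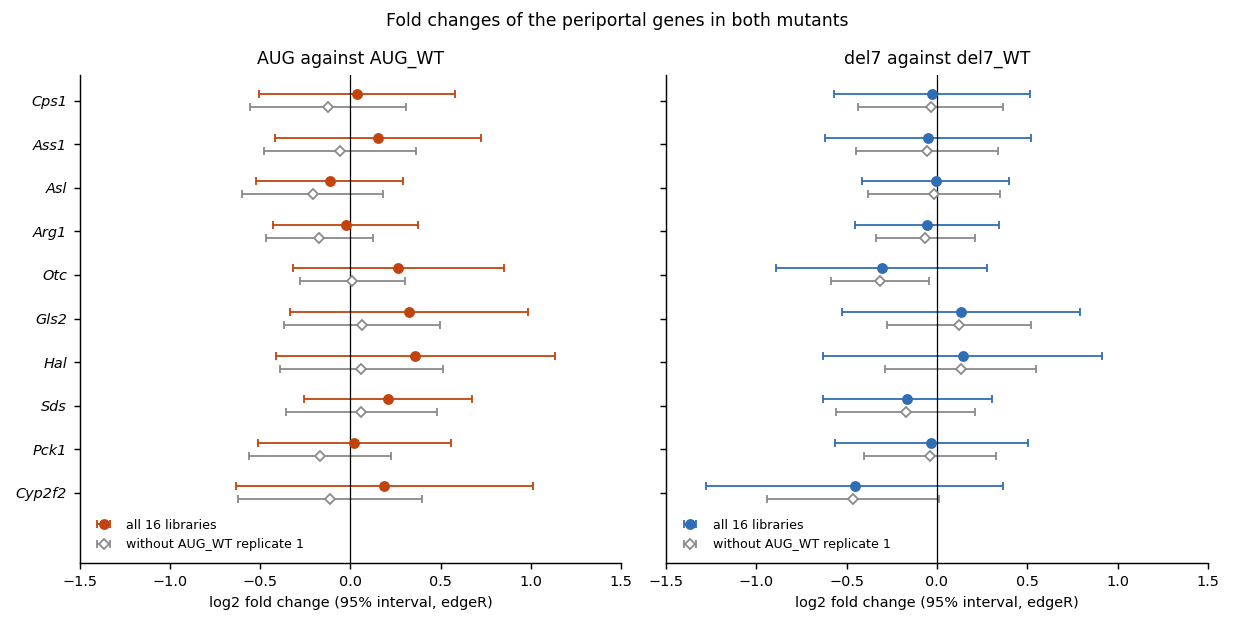
Log2 fold change of each member (horizontal axis, with 95% interval from edgeR), AUG over AUG_WT on the left and del7 over del7_WT on the right. Filled circles use 16 libraries and open diamonds leave out AUG_WT replicate 1, with Hal on the left at 0.36 with it and 0.06 without it, while on the right only the Otc interval without that library stays below 0.

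The effects of the mutations did not differ past the test for any member either. For the AUG effect minus the del7 effect edgeR called 0 of 10 members, where 0.00693% of genes were called, and 0 of 10 had an unadjusted p under 0.05 (5.21% of genes). Cyp2f2 (0.64 ± 0.54, log2 ± SE) and Otc (0.57 ± 0.39) were farthest from 0, with edgeR adjusted p of 0.885 and 0.878. Of the members 9 of 10 lay above 0, with a median of 0.20, and without AUG_WT replicate 1 the count was 3 of 10 with a median of -0.07, Cyp2f2 at 0.35 and Otc at 0.32. The wild types of both lines, AUG_WT against del7_WT, gave 0 of 10 called members against 0.0347% of genes, and 0 of 10 at an unadjusted p under 0.05 against 11.8% of genes. Their log2 fold changes ran from -0.46 for Cyp2f2 to 0.18 for Gls2. Without AUG_WT replicate 1 Cyp2f2 stood at -0.16 and 7 of 10 members lay above 0, against 4 of 10 with it. Gls2 then stood at 0.44 between the wild types, with an unadjusted edgeR p of 0.0437 and an adjusted p of 0.652. The wild types overlapped for 10 of 10 members, while 3.53% of genes had wild types that did not overlap. Between the wild types 10 of 10 Kupffer cell and macrophage markers lay above 0 (median 0.74, or 0.23 without AUG_WT replicate 1). Of the erythroid markers 6 of 6 did (1.98, or 2.18 without it). For the difference of effects all of both lists lay below 0 (medians -0.95 and -2.965, or -0.34 and -3.32 without it). Both lists had 0 calls, and their part in the member values was not tested.

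The farthest departure of periportal transcripts lay inside a wild-type group. AUG_WT replicate 1 was the lowest of 16 libraries for 10 of 10 members under TMM and under RLE size factors, but the depth of the drop differed between them. Compared with it, the mean of the other 3 AUG_WT libraries was 4.90 times higher for Cyp2f2 and 4.68 times for Hal. Gls2 and Otc came next at 3.32 and 3.21 times, then Ass1 at 2.42 and Pck1 at 2.15 times. Cps1 was 1.89 times higher there, Sds 1.76, Arg1 1.76 and Asl 1.43 times. The enzymes of the urea cycle did not divide by compartment: of the mitochondrial pair Otc was lower by more than Cps1, and of the cytosolic enzymes Ass1 by more than Arg1 and Asl. These ratios have no replicate of their own and carry no test.

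Ratios between members in 1 library do not depend on scaling. Hal had 49.4 in AUG_WT replicate 1, against 74.0 to 169.8 in the other 15 libraries, in counts per 1000 Cps1 counts. For Cyp2f2 the same ratio was 38.9 in AUG_WT replicate 1, against 64.0 to 179.8 in the other 15 libraries. For Otc it was 46.2 in AUG_WT replicate 1, against 60.6 to 100.2 in the other 15 libraries. Asl per 1000 Ass1 counts was 804 in AUG_WT replicate 1, against 364 to 596 in the other 15 libraries. Arg1 per 1000 Cps1 counts (188) lay inside the range of the others, 129 to 228. Scaling does set the absolute drop: the TMM factor of this library was 1.36, against 0.877 to 1.04 elsewhere, and by library size alone the median of all genes in it shifted by 0.51 (log2) against the other AUG_WT libraries. By library size alone it was the lowest of 16 for 5 of 10 members (Ass1, Otc, Gls2, Hal and Cyp2f2), and Asl was 0.02 (log2) above the mean of the other AUG_WT libraries. The pairs of genes in these ratios were chosen after the values were seen.

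**Figure D3:**
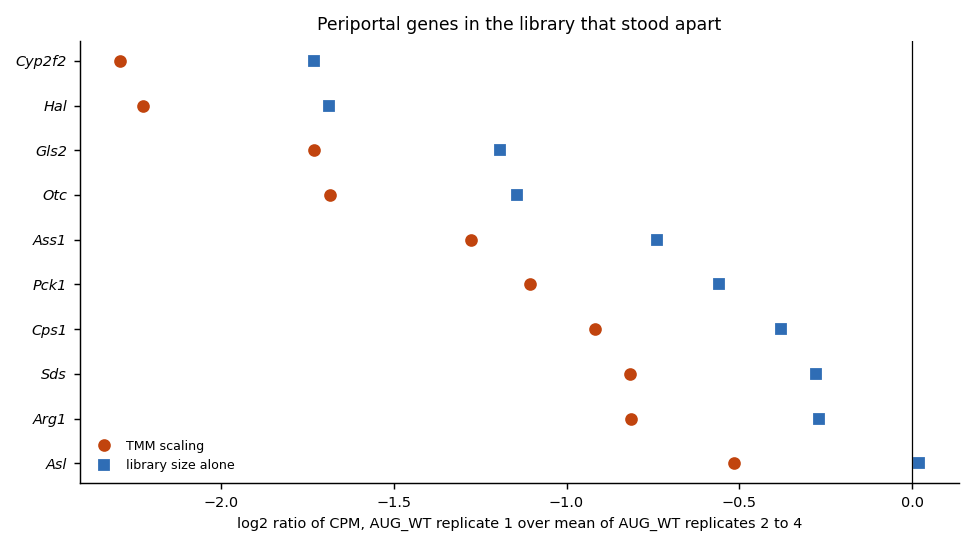
Log2 ratio of CPM in AUG_WT replicate 1 over the mean of AUG_WT replicates 2 to 4 (horizontal axis) for each member, under TMM scaling (circles) and by library size alone (squares). Cyp2f2 and Hal lie lowest and Asl nearest to 0 under both, and Asl by library size alone is at 0.02.

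Other hepatocyte lists were also low in that library. The median log2 difference from the other AUG_WT libraries was -1.17 over the members, -1.37 over 45 genes of amino acid catabolism (44 below 0), -1.27 over 18 other periportal genes (14 below 0), -1.15 over 9 hepatocyte markers (8 below 0) and -0.75 over 24 pericentral genes (19 below 0), against 0.03 over all genes. These lists share genes: the hepatocyte markers Alb, Tat and Cyp3a11 are also listed under other periportal genes, amino acid catabolism and pericentral genes, in that order. Single genes ranged from -2.25 to -0.47 among the members and from -1.94 to 1.08 among the pericentral genes. The members summed to 4963 CPM in AUG_WT replicate 1, against 8548.5 to 12078 CPM in the other 3 AUG_WT libraries. The pericentral list summed to 5828.5 CPM there, against 10067 to 17396 CPM. In bulk tissue, fewer cells of a type and less RNA per cell cannot be told apart. Markers of other cells moved in both directions there. The median log2 difference was -2.94 over 6 erythroid genes (5 below 0), -0.41 over 6 endothelial genes (4 below 0) and 0.15 over 7 stellate cell genes (3 below 0). Erythroid genes summed to 132 CPM in AUG_WT replicate 1, against 609 to 2964 CPM in the other 3 AUG_WT libraries. Lists of immune cells, bile duct cells and proliferation were high there, with 0 genes below 0 in each. The B and plasma cell list (7 of 8 tested) summed to 48.3 to 107 CPM in AUG livers and 92.7 to 1261 CPM in AUG_WT livers, where the top value is replicate 1, and to 44.6 to 231 CPM in del7 livers and 54.1 to 115 CPM in del7_WT livers. Proliferation genes (4 of 6 tested) summed to 8.27 to 15.8 CPM in AUG livers and 6.70 to 362 CPM in AUG_WT livers, again with replicate 1 highest, and to 6.92 to 22.3 CPM in del7 livers and 8.73 to 19.0 CPM in del7_WT livers. T and NK cell genes (6 of 8 tested) reached 72.3 CPM in replicate 1 and at most 13.6 CPM in AUG livers. Markers of the bile ducts, which run in the portal tract (5 of 6 tested), summed to 20.2 to 32.0 CPM in AUG livers and 23.5 to 130.1 CPM in AUG_WT livers, and to 38.4 to 66.7 CPM in del7 livers and 33.3 to 75.7 CPM in del7_WT livers. Spp1 was the largest part of these sums, averaging 19.3 (AUG), 44.0 (AUG_WT), 42.5 (del7) and 44.5 CPM (del7_WT). Group means of Krt19, Krt7 and Epcam reached at most 1.93 CPM. Mzb1, a plasma cell gene, was at 0 counts in 5 libraries, and Gzma, of cytotoxic cells, in 4. The part of these markers in the low member levels was not tested.

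Zonation was read as the level of the members against that of 24 pericentral genes, each the mean of log2 CPM after centring every gene on its mean over libraries. Every gene had equal weight, and group means ran down to 0.69 CPM in the pericentral list, against 115 CPM among the members. The part of low-count genes in the differences below was not tested. The members minus the pericentral genes came to -0.07, -0.01, 0.38 and -0.08 in AUG livers, against -0.50, 0.06, 0.18 and 0.24 in AUG_WT livers. In del7 livers the difference was -0.02, -0.16, 0.05 and -0.18, against 0.0044, 0.04, -0.09 and 0.15 in del7_WT livers. AUG_WT replicate 1 was the lowest and AUG replicate 3 the highest, and mutants and wild types overlapped in both lines. The means were 0.05 ± 0.22 in AUG livers and -0.0084 ± 0.34 in AUG_WT livers (SD, n = 4 each), and 0.16 ± 0.089 in AUG_WT livers without replicate 1. In del7 livers the mean was -0.07 ± 0.11, against 0.03 ± 0.096 in del7_WT livers (SD, n = 4 each). In AUG replicate 3 the members stood at 0.08 and the pericentral genes at -0.30, whereas in AUG_WT replicate 1 they stood at -1.12 and -0.62. The 24 pericentral genes gave 0 calls by edgeR in AUG against AUG_WT (15 of 24 above 0, median 0.13, and 10 of 24, median -0.06, without AUG_WT replicate 1) and in del7 against del7_WT (10 of 24 above 0, median -0.12). Those with the smallest p were Slc13a3, a carboxylate transporter, at -0.99 (edgeR adjusted p = 0.561) for AUG and -0.88 without AUG_WT replicate 1, and Ahr, the dioxin receptor, at 0.38 (edgeR adjusted p = 1) for del7.

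**Figure D4:**
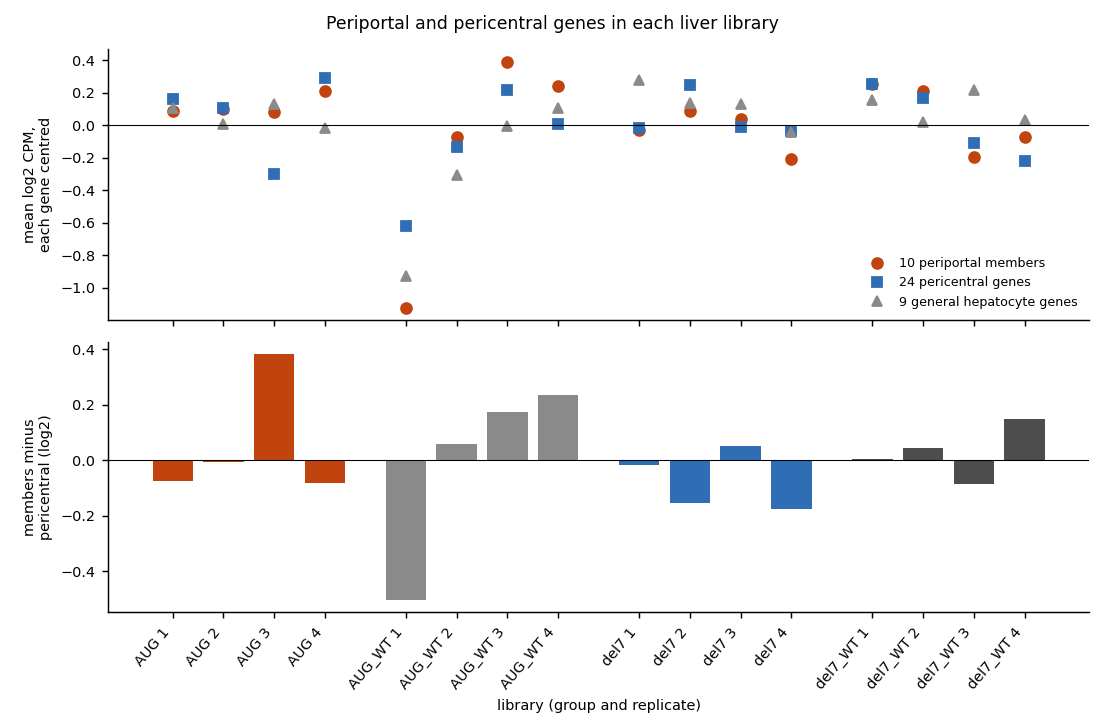
Upper panel: mean centred log2 CPM of the members, of 24 pericentral genes and of 9 hepatocyte markers in each library. Lower panel: members minus pericentral genes (log2), with bars from 0 coloured by group. AUG_WT replicate 1 lies lowest for all 3 lists and in the lower panel at -0.50, and AUG replicate 3 lies highest in the lower panel at 0.38.

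The 10 genes varied together over libraries, but most pairs that passed the threshold no longer did so without AUG_WT replicate 1. Over 16 libraries the 45 pairs had Pearson's r of log2 CPM from 0.25 to 0.87 with a median of 0.65, and 38 pairs had an adjusted permutation p under 0.05 (12 pairs for Spearman's rho). The closest pair was Ass1 with Otc (r = 0.87, rho = 0.71, adjusted permutation p = 0.00428 and 0.0251). Without the 2 libraries farthest from the median of the first gene of a pair, 0 pairs passed, and the lowest adjusted permutation p was 0.131. Taking out the extremes of a gene narrows its range, which lowers r by design, and leaves fewer libraries. That count therefore cannot show which libraries carried the pattern. In that setting 37 of 45 pairs still had r above 0, with a median of 0.37. Leaving out AUG_WT replicate 1 alone left 5 pairs, with r above 0 for 40 of 45 and a median r of 0.42. Centring each group as well left 1, Arg1 with Gls2 (r = 0.70, rho = 0.68, adjusted permutation p = 0.0108 and 0.0301). In those 15 group-centred libraries the median r of a member with the other 9 was 0.65 for Cps1, 0.61 for Asl, 0.58 for Ass1, 0.58 for Gls2 and 0.55 for Otc. Sds had a median r of 0.50 and Hal 0.47. Arg1 (0.24), Pck1 (0.07) and Cyp2f2 (-0.08) had the lowest medians. These medians describe 15 libraries that share 1 scaling step, and no difference between them was tested.

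**Figure D5:**
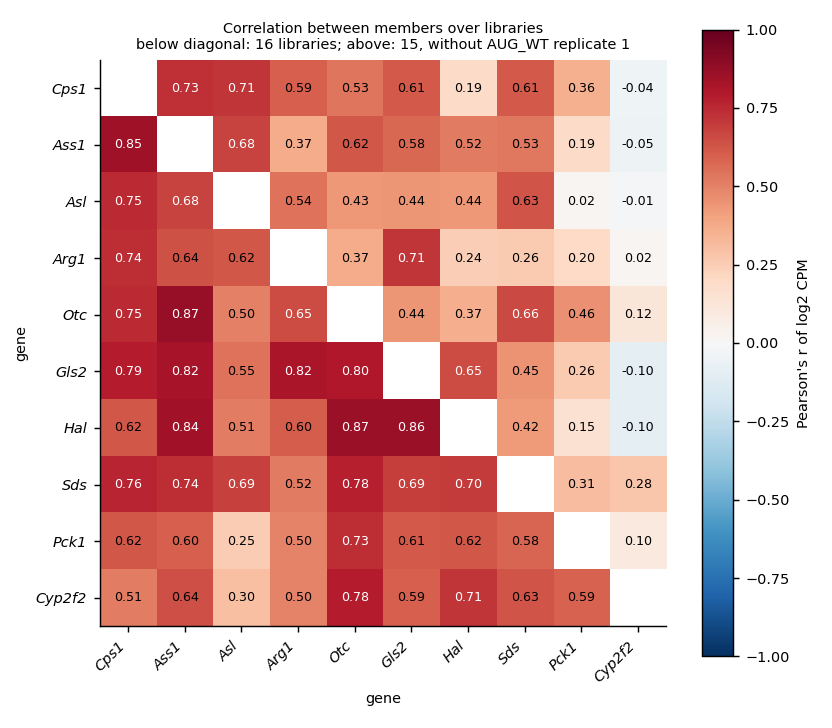
Pearson's r of log2 CPM between members over libraries, from blue (-1) to red (1). Below the diagonal are 16 libraries, where all 45 pairs are above 0, and above the diagonal are 15 without AUG_WT replicate 1, where the Cyp2f2 column lies between -0.10 and 0.28.

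Genes outside the set whose pattern over the 15 group-centred libraries was most like a member's were listed by Pearson's r, as a description with no test. For Otc they were Slc16a7 (0.96), Afmid (0.94) and Selenoo (0.93), and for Cps1 Gm4788 (0.94), Tdo2 (0.92) and Ammecr1l (0.91). Asl was closest to Oxnad1 (0.93), Gnmt (0.93) and Sod2 (0.91), and Ass1 to Aldh1l1 (0.91), Gas7 (0.91) and Aldh7a1 (0.90). Sds was closest to Pdxk (0.91), Car5a (0.87) and Aco1 (0.83), and Hal to Tpd52l1 (0.90), Glb1 (0.87) and Rfc5 (0.87). The nearest to Gls2 were Gm17066 (0.91), S100a1 (0.88) and Msi2 (0.86), and to Arg1 Zdhhc7 (0.87), Ciao2a (0.87) and Hnrnpc (0.87). Pck1 was nearest to Peli2 (0.90), Hipk3 (0.89) and 9030622O22Rik (0.87), and Cyp2f2 to Vcan (0.88), C1rl (0.88) and Spic (0.86). All were picked for a high r over 15 libraries, so those values are high by choice. With AUG_WT replicate 1 included, over 16 group-centred libraries, r was -0.38 for Spic, -0.36 for Msi2, -0.22 for Vcan, -0.055 for Glb1 and -0.011 for Rfc5. It was 0.10 for Hnrnpc, 0.13 for Gas7, 0.25 for Gm17066, 0.39 for Zdhhc7 and 0.61 for Ciao2a. For the remaining listed genes r lay between 0.77 (Sod2) and 0.98 (Afmid). Mean levels were low for Vcan (1.74 CPM) and Spic (2.26 CPM). All these genes share the same libraries and scaling with the members.

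Partners of the pathway gave no call either. Of 17 tested urea cycle partners (transporters, shuttles and regulators, 17 of 18 listed), 0 were called in any comparison. In AUG livers 12 of 17 lay above 0 with a median log2 fold change of 0.07, and without AUG_WT replicate 1 the count was 4 of 17 with a median of -0.08. Nags, which makes the N-acetylglutamate that Cps1 needs, averaged 57.4 ± 5.45 CPM in AUG livers and 43.1 ± 12.9 CPM in AUG_WT livers (SD, n = 4 each), a log2 fold change of 0.41 (edgeR adjusted p = 0.567), and of 0.23 without AUG_WT replicate 1 (edgeR adjusted p = 0.836). In del7 livers Nags averaged 60.1 ± 11.2 CPM, against 51.8 ± 2.84 CPM in del7_WT livers (SD, n = 4 each; log2 fold change 0.21, edgeR adjusted p = 1). Slc25a12, an aspartate carrier, stood at -0.32 for AUG (edgeR adjusted p = 0.586) and at -0.08 without AUG_WT replicate 1 (edgeR adjusted p = 0.936). Sirt5, the mitochondrial deacylase that acts on Cps1, stood at -0.21 for del7 (edgeR adjusted p = 1). The ornithine carrier Slc25a15 averaged 285.8 ± 27.7 CPM in AUG livers and 286 ± 108 CPM in AUG_WT livers (SD, n = 4 each).

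Across 45 genes of amino acid catabolism, 0 were called in any comparison. For del7, 38 of 45 lay below 0 with a median of -0.13, beside 0.00014 over all genes, and the counts without AUG_WT replicate 1 were the same. For AUG, 33 of 45 lay above 0 (median 0.10), against 10 of 45 without that library (median -0.14). Hao1, the glycolate oxidase of peroxisomes, had 0.67 for AUG (edgeR adjusted p = 0.561) and 0.49 without AUG_WT replicate 1, and Csad, of taurine synthesis, had 1.24 for del7 (edgeR adjusted p = 1). Uroc1 and Ftcd, which follow Hal in histidine breakdown, had 0.29 and 0.27 for AUG (edgeR adjusted p = 0.745 and 0.747), and 0.06 and 0.04 without AUG_WT replicate 1. Of 20 genes of gluconeogenesis and glucagon response, 12 lay above 0 for AUG and 12 for del7, with 0 calls, and without AUG_WT replicate 1 the counts were 5 and 11. Sik1, a kinase induced by cyclic AMP, had 0.70 for del7 (edgeR adjusted p = 1) and -0.46 for AUG (edgeR adjusted p = 0.632), where it stood at -0.25 without AUG_WT replicate 1 (edgeR adjusted p = 0.921). Of 18 other periportal genes 0 were called. For del7 14 of 18 lay below 0, with a median of -0.24. Serpina12, the adipokine vaspin, had -1.51 (edgeR adjusted p = 1), and Igf1, the growth factor that the liver releases, had -0.41 (edgeR adjusted p = 1).

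Reads of a strand opposite to the members were few. Gls2 overlaps Spryd4, Sds overlaps Plbd2 and Gm15690, and Cyp2f2 overlaps Gm15883, each on the opposite strand, and the counting kept strand. Antisense counts were at most 1.64% of a member's sense and antisense counts together, for Gls2 in AUG_WT replicate 1. Counts on the Cps1 locus from the other strand never passed 6 in a library.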

How the data were processed

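RNA from 16 liver samples was sequenced. Per the labels' protocols, each library was made from 10 mg of liver and 550 ng of RNA by ribosomal RNA depletion and a kit that marks strand. Trimming with cutadapt 2.10 and alignment with STAR 2.7.9a to GRCm39 are named in the submitters' processing notes, which give no annotation release. Per gene, the authors deposited raw whole-number counts. Their series table equalled the reverse-strand column of the per-sample tables in 16 of 16 samples. Lines for unassigned reads (unmapped, multimapping, outside genes and ambiguous) stayed out of totals: 2.82% to 3.93%, 9.23% to 15.0%, 21.8% to 35.0% and 0.802% to 1.00% of a library. STAR counts only reads with 1 alignment, so near-identical copies can lose reads. Symbols came from GENCODE M21 by Ensembl identifier (52081 of 55357 genes), on an older build, so gene coordinates are not printed.

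edgeR 4.0.16 (R 4.3.3) tested 14421 genes kept by filterByExpr (minimum count 10) with TMM scaling, 1 group-means model of 16 libraries with 12 residual degrees of freedom, and Benjamini-Hochberg adjustment at 0.05, two-sided. It was tested on simulated counts with 200 changed genes. Log2 CPM has a prior count of 2. TPM divides counts by the merged length of all annotated exons of a gene. Correlations used 100000 permutations, within groups where groups were centred, adjusted over 45 pairs (Python 3.11.15, scipy 1.17.1). Samples were grouped by title. The closest pair of libraries, del7 replicate 3 and del7_WT replicate 3, differed beyond sampling noise (chi-square of 8.40 per gene). Members and lists were chosen with earlier results of these data known. All 10 members are named. From other lists the rule allowed called genes or, where none passed, up to 4 with the smallest p, and for each member the 3 genes most like it; Slc25a15 and the Mzb1 and Gzma counts fall outside it and were chosen after values were seen. Alternatives were unstranded counts, RLE factors, TMM without mitochondrial genes, no filter, a mean of 1 CPM, DESeq2 1.42.0, limma voom 3.58.1, the 2 groups alone, a replicate block, leaving out each library and, added after seeing the data, library size alone.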

Additional observations from a re-analysis of the deposited data

Results flagged for a closer look

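Arg1, the arginase that ends the urea cycle, had 480.2 CPM in AUG_WT replicate 1, the lowest of its group of 4. On the log2 CPM scale, where the rule was applied, the gap to the nearest library was 0.847 of the range of the group. That is above Dixon's 95% critical value of 0.829, and the rule was not applied to CPM as printed here. The other 3 AUG_WT libraries lay at 795 to 871 CPM. Of 40 groups of 4 examined (10 members in 4 groups), this was the 1 beyond that value, and chance gives about 1 in 20. By library size alone Arg1 in that library was above 4 of the other libraries.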

How the results depend on the processing

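The count of called members was 0 of 10 in each of 4 comparisons under every alternative run, with a lowest edgeR, DESeq2 or limma adjusted p of 0.249. Of 180, 190, 250 and 180 member fold changes recomputed (AUG, del7, difference of effects, wild types), 15, 17, 18 and 13 had the opposite sign to the value reported, and 0 passed the threshold. Leaving out 1 library at a time gave these log2 ranges for members that changed sign: for AUG against AUG_WT Cps1 -0.13 to 0.26, Ass1 -0.058 to 0.37, Asl -0.22 to 0.10, Arg1 -0.17 to 0.059, Pck1 -0.17 to 0.15 and Cyp2f2 -0.11 to 0.52. The ranges for del7 against del7_WT were Cps1 -0.14 to 0.12, Ass1 -0.20 to 0.092, Asl -0.090 to 0.088, Arg1 -0.16 to 0.051, Gls2 -0.021 to 0.24, Hal -0.028 to 0.25 and Pck1 -0.13 to 0.15. The ranges for the difference of effects were Cps1 -0.091 to 0.29, Ass1 -0.0027 to 0.42, Asl -0.20 to 0.11, Arg1 -0.11 to 0.14, Gls2 -0.059 to 0.40, Hal -0.071 to 0.44 and Pck1 -0.13 to 0.19. The ranges for AUG_WT against del7_WT were Cps1 -0.29 to 0.11, Ass1 -0.42 to 0.016, Asl -0.18 to 0.13, Gls2 -0.028 to 0.44, Hal -0.30 to 0.22 and Pck1 -0.040 to 0.28. Without a filter Arg1 stood at 0.0087 (AUG) and Asl at -0.000699 (wild types). By library size alone, an alternative chosen after seeing the data, Cps1, Asl and Pck1 stood at 0.0087, 0.026 and 0.012 for del7, and Arg1 at -0.012 for the difference. The cause of each change was not tested.

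Counts over all genes moved more. For the wild types edgeR called 5 genes, against 3 with unstranded counts, 11 without a filter, 70 by DESeq2, 13 with the 2 groups alone, 1 with the replicate block, 3 by library size alone and 1 to 10 leaving out a library (10 without AUG_WT replicate 1, 1 without AUG_WT replicate 2 or del7_WT replicate 2). DESeq2 called 9 genes for AUG (edgeR 4), 1 for del7 (edgeR 0) and 6 for the difference (edgeR 1), where limma voom and the replicate block called 2 each and leaving out a library gave 1 to 2. Same-number correlations were -0.16 to 0.35 (AUG), 0.092 to 0.28 (del7) and -0.07 to 0.057 (wild types), and 1, 3 and 1 of 4 numbers correlated best with their own. For del7 this is a hint of pairing from the data, with 1 of 4 correlations short of 0.1. The closest pair of all libraries was also del7 replicate 3 with del7_WT replicate 3. The labels tie the numbers to nothing shared, so the numbers were not treated as pairs. With the replicate block 0 members were called in any comparison, and for del7 0 genes, as without it.

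Of 45 correlated pairs of members 38 passed over 16 libraries and 40 with RLE size factors, against 5 without AUG_WT replicate 1, 16 after centring groups, 1 with both (added after seeing the data) and 0 without the 2 farthest libraries. Leaving out AUG_WT replicate 1 takes away the library where 10 of 10 members were lowest under TMM. Leaving out the 2 farthest libraries narrows the range of a gene, which lowers r by design. With 4 libraries a group the median SE of a member's log2 fold change was 0.26, at 809 to 81402 counts per member and library.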

Other observations

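The spread of the members within groups followed the same library. Over 16 libraries the median SD of log2 CPM was 0.39 over the members and 0.31 over all tested genes, and without AUG_WT replicate 1 it was 0.28 and 0.25. Without that library Otc (0.18) and Arg1 (0.18) varied least, Cps1, Ass1, Asl, Sds and Pck1 lay between 0.26 and 0.28, Gls2 (0.29) and Hal (0.31) followed, and Cyp2f2 (0.36) varied most. Cps1 counts per 1000 Glul counts, the first enzyme of ammonia capture against the last, were 3669 in AUG_WT replicate 1 and 2687 to 7015 in the other 15 libraries, so the library with the lowest members lay inside the range for this ratio.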
